A study of Mus musculus with 10 samples.

Results

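The ligands of the tumour necrosis factor (TNF) superfamily were described in CD8 T cells labelled NFAT5 KO and in WT cells from mouse melanomas. The 10 genes were Tnf, Lta, Ltb, Fasl, Cd40lg, Cd70, Tnfsf8, Tnfsf10, Tnfsf11 and Tnfsf14, chosen by name as members of the family, with earlier results of these data known, out of 54408 genes with a matched transcript. Each name matched 1 gene of the annotation. All libraries came from P14 CD8 T cells on a C57BL/6 background, whose transgenic receptor recognises the gp33 peptide, isolated from subcutaneous B16-gp33 melanoma, a mouse tumour line that carries this peptide. NFAT5 KO cells (5 libraries) were Nfat5 flox/flox CD4-Cre+/-, with Cre under the Cd4 promoter, and WT cells (5 libraries) were Nfat5 flox/flox CD4-Cre-/-, so that all libraries share the floxed alleles. Both kinds of cells had been activated for 48 hours in vitro and transferred into tumour-bearing mice, and the tumours were taken on day 7 after transfer. The Cd4 promoter is active in thymocytes before they commit to the CD8 lineage, so the deletion it drives is not confined to the time in the tumour. The sources used here give neither the age of the mice nor how host CD8 T cells were kept out of the sort. Separate mice are not stated per library, and the p-values therefore rest on a spread between libraries that may be technical.

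TNF superfamily ligands are mostly trimeric membrane proteins that bind receptors of the TNF receptor superfamily on neighbouring cells, and some are cleaved into soluble cytokines. TNF and the lymphotoxins drive inflammation and the organisation of lymphoid tissue, FasL and TRAIL can trigger apoptosis, and CD40L, CD70, CD30L and LIGHT act in costimulation between T cells and antigen-presenting cells. In T cells many of these genes are induced by signals of the antigen receptor.

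The libraries held 22444310 to 32001285 estimated counts. The 10 listed markers of CD8 T cells, such as Cd3e and Cd8a, were all detected, with a summed level of 9927 to 10580 CPM (counts relative to the TMM-scaled library size) in NFAT5 KO and 9013 to 10000 CPM in WT libraries. Of these markers Trac, Cd2 and Cd5 were called higher in NFAT5 KO, by 0.50, 0.46 and 0.29 on the log2 scale, and the mean log2 CPM of the 10 was 9.74 to 9.83 in NFAT5 KO and 9.56 to 9.70 in WT libraries. The part of this difference in the ligand results was not tested. The summed level of the 6 melanoma markers was 0.916 to 3.79 CPM in NFAT5 KO and 1.19 to 4.27 CPM in WT libraries. All 9 macrophage markers had a lower mean in NFAT5 KO libraries, and their summed level was 20.1 to 64.4 CPM in NFAT5 KO and 53.4 to 129 CPM in WT libraries. Of the 7 that could be tested, Adgre1 alone passed the test (0.147 CPM in NFAT5 KO and 2.26 CPM in WT libraries as means), and none of the 9 was at 0 throughout. Summed levels of NK cell markers were 4.31 to 11.2 CPM in NFAT5 KO and 14.0 to 34.6 CPM in WT libraries. Most of this was Klri2, which was called lower (means of 5.20 CPM in NFAT5 KO and 19.4 CPM in WT libraries). Klrb1c overlapped between the groups (adjusted p = 0.545), and Ncr1 was at 0 in every library. The lists for B cells (5.16 to 11.0 CPM in NFAT5 KO, 8.41 to 14.4 CPM in WT libraries), dendritic cells (9.09 to 21.1 CPM in NFAT5 KO, 3.57 to 13.5 CPM in WT libraries) and neutrophils (0 to 0.583 CPM in NFAT5 KO, 0.127 to 2.10 CPM in WT libraries) held no called gene. Only 1 of 5 B cell, 2 of 6 dendritic cell and 0 of 5 neutrophil markers could be tested. Nfat5 itself ranged over 11.6 to 26.8 CPM in NFAT5 KO and 9.20 to 18.3 CPM in WT libraries. A count over the whole gene cannot tell reads of the floxed part from the others, so it does not check the genotype labels.

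Of the ligands, 4 rose in NFAT5 KO cells and none fell at the threshold. Cd40lg, which encodes the ligand of CD40 on antigen-presenting cells, rose 3.90-fold, and Tnfsf14, which encodes LIGHT, rose 2.24-fold. Fasl, the ligand of the death receptor Fas, rose 1.43-fold, and Ltb, the membrane-anchoring subunit of lymphotoxin, rose 1.38-fold. Tnf, Lta, Tnfsf8, Tnfsf10 and Tnfsf11 were tested and did not pass, and Cd70 was too low to be tested. The 4 are counted among the 9 ligands that passed the filter on low counts. Among all 13081 genes tested, 3.38% were called higher, 5.63% lower and 9.01% in either direction (edgeR quasi-likelihood test, adjusted p below 0.05). The same 4 ligands had every NFAT5 KO library above every WT library, which held for 3.92% of all genes tested. The median log2 fold change was 0.30 over the 9 ligands and 0.02 over all genes tested. In bulk libraries such as these, a higher level per cell and a larger share of cells that express a gene cannot be told apart.

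**Figure D1:**
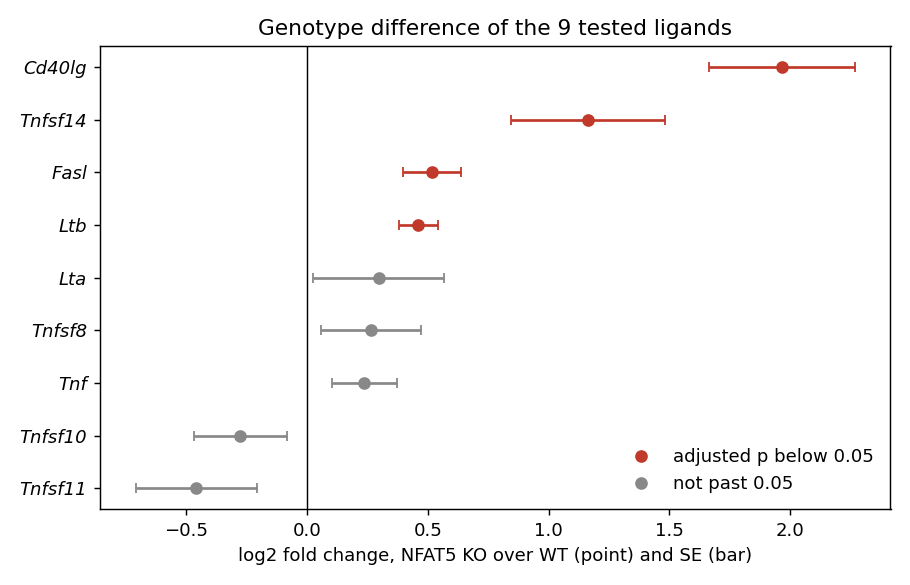
Log2 fold change of NFAT5 KO over WT (points) with its standard error (bars) for the 9 ligands tested. Cd40lg at 1.96, Tnfsf14 at 1.16, Fasl at 0.52 and Ltb at 0.46 passed an adjusted p of 0.05 (red), and the other 5 ligands (gray) did not.

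Of the 10 ligands, 5 lie in 2 clusters on chromosome 17 (GRCm38). Ltb (35194439 to 35196320, + strand), Tnf (35199381 to 35202007, - strand) and Lta (35203165 to 35205351, - strand) follow each other with gaps of 3060 and 1157 bases. Cd70 (57145997 to 57149777) and Tnfsf14 (57189492 to 57194177), both on the - strand, are neighbours at a distance of 39714 bases. Tnfsf9, another ligand gene, lies 38239 bases from Cd70 on its other side, with a pseudogene between them. In the first cluster Ltb passed the test and Tnf and Lta did not, though Lta passed when 1 NFAT5 KO library was left out. In the other, Tnfsf14 passed and Cd70 was too low to be tested, so this pair could not show a shared call. The others are single. Fasl lies on chromosome 1 (161780689 to 161788495), Cd40lg on X (57212143 to 57224042), Tnfsf8 on 4 (63831308 to 63861347), Tnfsf10 on 3 (27317028 to 27342427) and Tnfsf11 on 14 (78277445 to 78308043). No annotated gene on the opposite strand overlaps a ligand gene, but Ltb and Lta each contain a miRNA gene on their own strand, Mir6973a and Mir6974.

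NFAT5 is a transcription factor related in its DNA-binding domain to the other NFAT proteins, so the stretch before the start of 4 genes is shown. The sequences are from RefSeq (GRCm38.p6), for 3 genes that rose and for Tnf, which did not pass. Capitals mark GGAAA on either strand (TTTCC on the other), the core letters of NFAT sites. Each runs 5′ to 3′ on the strand of its gene and stays outside the annotated gene, so that of Ltb (chr17:35194257-35194438) is shorter. The others are Fasl at chr1:161788496-161788745, Tnfsf14 at chr17:57194182-57194431 and Tnf at chr17:35202008-35202257.
Ltb: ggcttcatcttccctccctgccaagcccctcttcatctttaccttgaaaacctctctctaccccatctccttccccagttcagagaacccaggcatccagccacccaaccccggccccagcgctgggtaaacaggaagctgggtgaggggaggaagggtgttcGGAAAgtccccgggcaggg
Fasl: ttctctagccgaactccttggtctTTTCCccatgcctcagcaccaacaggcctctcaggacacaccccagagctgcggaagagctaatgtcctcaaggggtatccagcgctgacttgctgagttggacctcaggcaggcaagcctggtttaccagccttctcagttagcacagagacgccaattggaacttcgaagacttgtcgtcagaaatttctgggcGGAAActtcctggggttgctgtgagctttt
Tnfsf14: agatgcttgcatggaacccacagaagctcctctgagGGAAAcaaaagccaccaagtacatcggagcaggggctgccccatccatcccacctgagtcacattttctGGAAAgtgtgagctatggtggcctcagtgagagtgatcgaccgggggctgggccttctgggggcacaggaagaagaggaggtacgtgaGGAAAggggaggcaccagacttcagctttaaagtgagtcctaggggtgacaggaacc
Tnf: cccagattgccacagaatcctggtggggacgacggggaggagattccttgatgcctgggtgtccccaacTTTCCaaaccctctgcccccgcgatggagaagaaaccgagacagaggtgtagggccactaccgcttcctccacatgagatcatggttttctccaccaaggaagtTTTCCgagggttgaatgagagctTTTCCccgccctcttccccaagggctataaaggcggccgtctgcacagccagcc

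Within 250 bases before the RefSeq start, GGAAA occurred 3 times in Tnfsf14 (its first base 214, 145 and 57 bases before the start), 3 times in Tnf (181, 77 and 54), 2 times in Fasl (226 and 30) and once in Ltb (87). The same letters occurred at least once in 55.6% of 32851 windows of this length, and in all 8 ligand genes with a RefSeq window. Cd40lg and Cd70 are named here without one. The kappaB consensus, a longer motif bound by NF-kB, was found in Ltb alone of the 8, where it starts at the same base as GGAAA and overlaps it (7.25% of all windows hold it). The AP-1 motif TGANTCA was found in Tnfsf14 alone, 160 bases before the start (6.75% of all windows). The full tonicity element, the sequence NFAT5 is known to bind, was in none of the 8 windows and in 4.31% of all windows. Both strands were searched, GGAAA is contained in the tonicity element, and a match or its absence describes letters in this window only.

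Per transcript length, the ligands spanned about 3 orders of magnitude, and Ltb dominated. In TPM (the abundance scaled by transcript length that the authors deposited), Ltb stood at 1046 ± 102 in NFAT5 KO and 753 ± 68.7 in WT libraries (SD, n = 5 each). Its share of the summed TPM of the 10 ligands was 81.5 ± 0.782% in NFAT5 KO and 81.9 ± 1.58% in WT libraries. Fasl followed at 94.5 ± 18.5 TPM in NFAT5 KO and 65.0 ± 3.63 TPM in WT libraries. Both ranks were separated from the next by ranges that did not overlap, in each genotype. Tnf was next at 35.2 ± 5.72 TPM in NFAT5 KO and 29.6 ± 5.20 TPM in WT libraries. From there on the ranges of neighbours overlapped down to Tnfsf10 in NFAT5 KO and down to Cd40lg in WT libraries. Cd40lg was the sixth highest in NFAT5 KO libraries (17.2 ± 3.82 TPM) and the ninth in WT libraries (4.37 ± 2.09 TPM), below Tnfsf10 and Tnfsf11. Cd70 was the lowest in both, at 0.657 ± 0.328 TPM in NFAT5 KO and 0.364 ± 0.353 TPM in WT libraries. The summed TPM of the 10 ligands was 1283 ± 122 in NFAT5 KO and 919 ± 75.7 in WT libraries, and without Ltb it was 237 ± 23.0 in NFAT5 KO and 166 ± 15.6 in WT libraries.

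**Figure D2:**
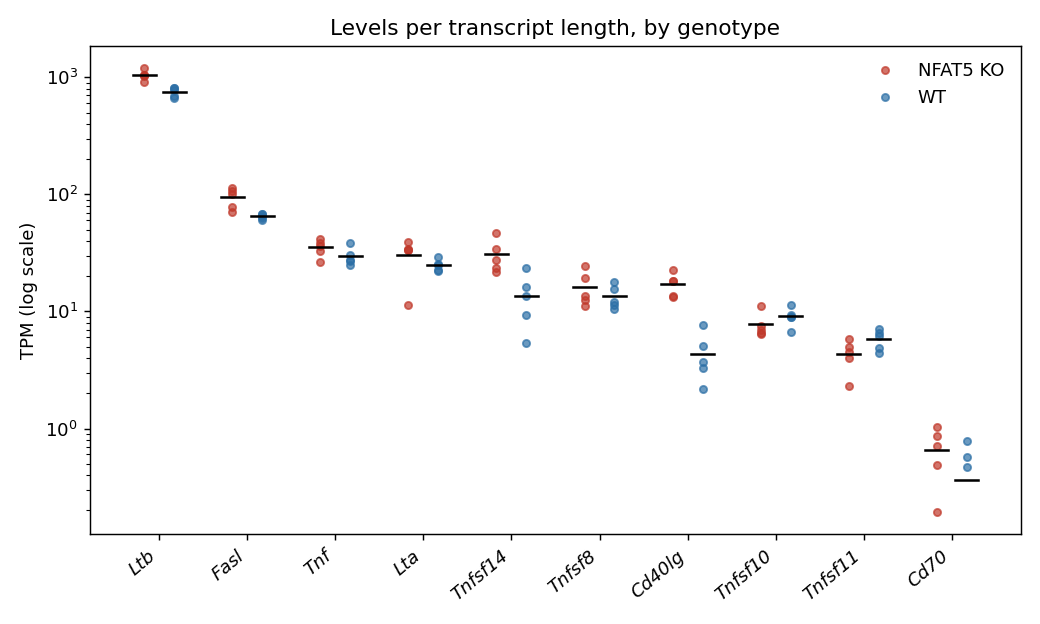
TPM of each ligand (log axis) in every NFAT5 KO (red, left) and WT (blue, right) library, with the group mean as a line. Ltb lies above all other ligands in both genotypes and Cd40lg averages 17.2 TPM in NFAT5 KO and 4.37 TPM in WT libraries. The 2 WT libraries with 0 counts of Cd70 cannot be drawn on this axis.

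Values in CPM are given below in a set order, which for NFAT5 KO is 678_3, then 678_5, 678_6, 679_2, 679_6, and for WT is 678_2, then 678_4, 679_3, 679_4, 679_5. The first part of a library's name, 678 or 679, is a label prefix whose meaning the labels do not give.

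Of the lymphotoxin and TNF genes, Ltb rose and the other 2 did not pass. Ltb encodes lymphotoxin beta, which holds lymphotoxin alpha at the cell surface and binds the lymphotoxin beta receptor. Ltb measured 761, 691, 843, 727 and 770.2 CPM in NFAT5 KO and 475, 572, 552, 599 and 558 CPM in WT libraries. Every NFAT5 KO library was above every WT library, with a log2 fold change of 0.46 ± 0.08 (SE) at an adjusted p of 0.00362. Leaving out any 1 of the 10 libraries kept the call (adjusted p at most 0.0169). Within the label prefixes the log2 fold change was 0.54 (678, adjusted p = 0.265) and 0.39 (679, adjusted p = 0.125), so neither passed in these smaller sets.

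Tnf encodes the cytokine TNF, which activates endothelium and macrophages and is itself also made by macrophages. Tnf measured 38.5, 45.6, 52.2, 54.2 and 45.9 CPM in NFAT5 KO and 34.3, 36.2, 49.4, 39.4 and 41.2 CPM in WT libraries. The groups overlapped, since WT 679_3 was above 3 of the 5 NFAT5 KO libraries, and the log2 fold change was 0.24 ± 0.13 (SE) at an adjusted p of 0.315. Lta encodes lymphotoxin alpha, which forms soluble trimers or joins lymphotoxin beta. Lta measured 43.0, 12.1, 45.3, 37.5 and 40.1 CPM in NFAT5 KO and 29.6, 29.3, 32.0, 27.8 and 26.0 CPM in WT libraries. NFAT5 KO 678_5 was the lowest of all 10, and the other 4 NFAT5 KO libraries were above every WT library. The log2 fold change was 0.30 ± 0.27 (SE) at an adjusted p of 0.557, without NFAT5 KO 678_5 it was 0.50 (adjusted p = 0.0213), and without NFAT5 KO 678_6 it was 0.18. In the same library Tnf (45.6 CPM) lay within the range of the other NFAT5 KO libraries, and Ltb (691 CPM) was the lowest of them but above every WT library.

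Of the death ligands, Fasl rose and Tnfsf10 did not pass. Fasl encodes FasL, by which cytotoxic T cells kill cells that carry Fas. Fasl measured 111, 115, 154, 159.7 and 159 CPM in NFAT5 KO and 104, 106, 91.5, 94.3 and 93.0 CPM in WT libraries. The groups did not overlap, but NFAT5 KO 678_3 and 678_5 were within 10 CPM of the highest WT library. The log2 fold change was 0.52 ± 0.12 (SE) at an adjusted p of 0.0169. The call was lost without NFAT5 KO 678_6, 679_2 or 679_6 (adjusted p = 0.0563, 0.0561 and 0.0543) and without WT 679_3 or 679_5 (0.0544 and 0.0517), with log2 fold changes of 0.45 to 0.57 over the 10 such fits. Within the label prefixes the log2 fold change was 0.27 (678, adjusted p = 0.677) and 0.77 (679, adjusted p = 0.0257). The test of that difference between prefixes gave an unadjusted p of 0.0361 in the edgeR fit and an adjusted p of 0.99985, and 0 of 13081 genes passed it (377 at an unadjusted p below 0.05).

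Tnfsf10 encodes TRAIL, a ligand of death receptors. Tnfsf10 measured 24.9, 29.6, 18.6, 23.3 and 25.0 CPM in NFAT5 KO and 44.9, 25.9, 25.4, 24.1 and 26.6 CPM in WT libraries. WT 678_2 was far above all other libraries, which overlapped between the groups. The log2 fold change was -0.28 ± 0.19 (SE) at an adjusted p of 0.429, and without WT 678_2 it was -0.08 (adjusted p = 0.835).

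Of the costimulatory ligands, Cd40lg and Tnfsf14 rose. Cd40lg encodes CD40L, which licenses dendritic cells and helps B cells and is best known from CD4 T cells. Cd40lg measured 19.8, 23.3, 20.7, 14.2 and 15.7 CPM in NFAT5 KO and 4.20, 8.41, 3.47, 2.56 and 5.34 CPM in WT libraries. The groups were far apart, and the lowest NFAT5 KO library was above the highest WT library by more than 5 CPM. The log2 fold change was 1.96 ± 0.30 (SE) at an adjusted p of 0.00175. Leaving out any 1 library kept the call (1.80 to 2.25, adjusted p at most 0.00784), and the value was 1.75 within prefix 678 (adjusted p = 0.212) and 1.98 within prefix 679 (adjusted p = 0.0488).

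Of the CD4 T cell markers beside Cd40lg, Cd4 itself was 0 to 2.42 CPM in NFAT5 KO and 0 to 0.236 CPM in WT libraries. It was at its highest in NFAT5 KO 678_6, which had 20.7 CPM of Cd40lg. It was at 0 in NFAT5 KO 678_5 and 679_6, which had 23.3 and 15.7 CPM of Cd40lg. Foxp3 averaged 0.195 CPM in NFAT5 KO and 0.684 CPM in WT libraries. Zbtb7b, which encodes the lineage factor of CD4 T cells, ranged over 7.22 to 18.2 CPM in NFAT5 KO and 3.14 to 12.3 CPM in WT libraries (adjusted p = 0.216). Unlike Cd4, Zbtb7b was at its highest in NFAT5 KO 678_5, the library with the highest Cd40lg. Among NFAT5 KO libraries it was lowest in 679_6. The summed level of the 3 was 8.16 to 18.3 CPM in NFAT5 KO and 3.41 to 12.8 CPM in WT libraries, and its part in the Cd40lg result was not tested.

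Tnfsf14 encodes LIGHT, which binds HVEM and the lymphotoxin beta receptor. Tnfsf14 measured 37.6, 67.8, 54.2, 41.8 and 38.4 CPM in NFAT5 KO and 14.9, 36.5, 20.4, 8.90 and 26.4 CPM in WT libraries. The groups did not overlap, but WT 678_4 was close to the lowest NFAT5 KO library. The log2 fold change was 1.16 ± 0.32 (SE) at an adjusted p of 0.0390. The call was lost without WT 678_2 (adjusted p = 0.102), 679_3 (0.0910) or 679_5 (0.0585) and without NFAT5 KO 678_5 (0.0883), 678_6 (0.0891), 679_2 (0.0655) or 679_6 (0.0560), while the log2 fold change stayed between 0.96 and 1.42. With the label prefix as a block it was 1.08 (adjusted p = 0.0594), and it was 1.05 within prefix 678 (adjusted p = 0.446) and 1.11 within prefix 679 (adjusted p = 0.250), passing in neither.

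Tnfsf8 encodes CD30L, a ligand of activated lymphocytes. Tnfsf8 measured 47.1, 88.6, 55.4, 42.4 and 78.6 CPM in NFAT5 KO and 48.5, 43.7, 66.5, 43.5 and 57.5 CPM in WT libraries. NFAT5 KO 678_5 and 679_6 were the highest of all, the other 3 lay within or just below the WT range, and the log2 fold change was 0.26 ± 0.21 (SE) at an adjusted p of 0.486. Without NFAT5 KO 678_5 it was 0.09 (adjusted p = 0.847) and without NFAT5 KO 679_6 it was 0.15. Cd70 encodes the ligand of the costimulatory receptor CD27. It had 3, 15, 11, 8 and 13 estimated counts in NFAT5 KO and 10, 0, 8, 0 and 11 in WT libraries, under the filter for the test. In the WT libraries at 0, the limit that a count of 0 allows (3 counts) is 0.102 and 0.103 CPM, near the level of NFAT5 KO 678_3 at 0.122 CPM. With no filter its log2 fold change was 0.78 ± 1.18 (SE) at an adjusted p of 0.754, so a difference was not detectable at this depth.

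Tnfsf11 encodes RANKL, the ligand that drives osteoclast formation and that T cells can also make. Tnfsf11 measured 9.94, 7.33, 4.35, 6.85 and 9.22 CPM in NFAT5 KO and 8.24, 12.4, 10.5, 12.5 and 8.15 CPM in WT libraries. The groups overlapped, with the 3 highest values in WT libraries, and the log2 fold change was -0.46 ± 0.25 (SE) at an adjusted p of 0.300.

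**Figure D3:**
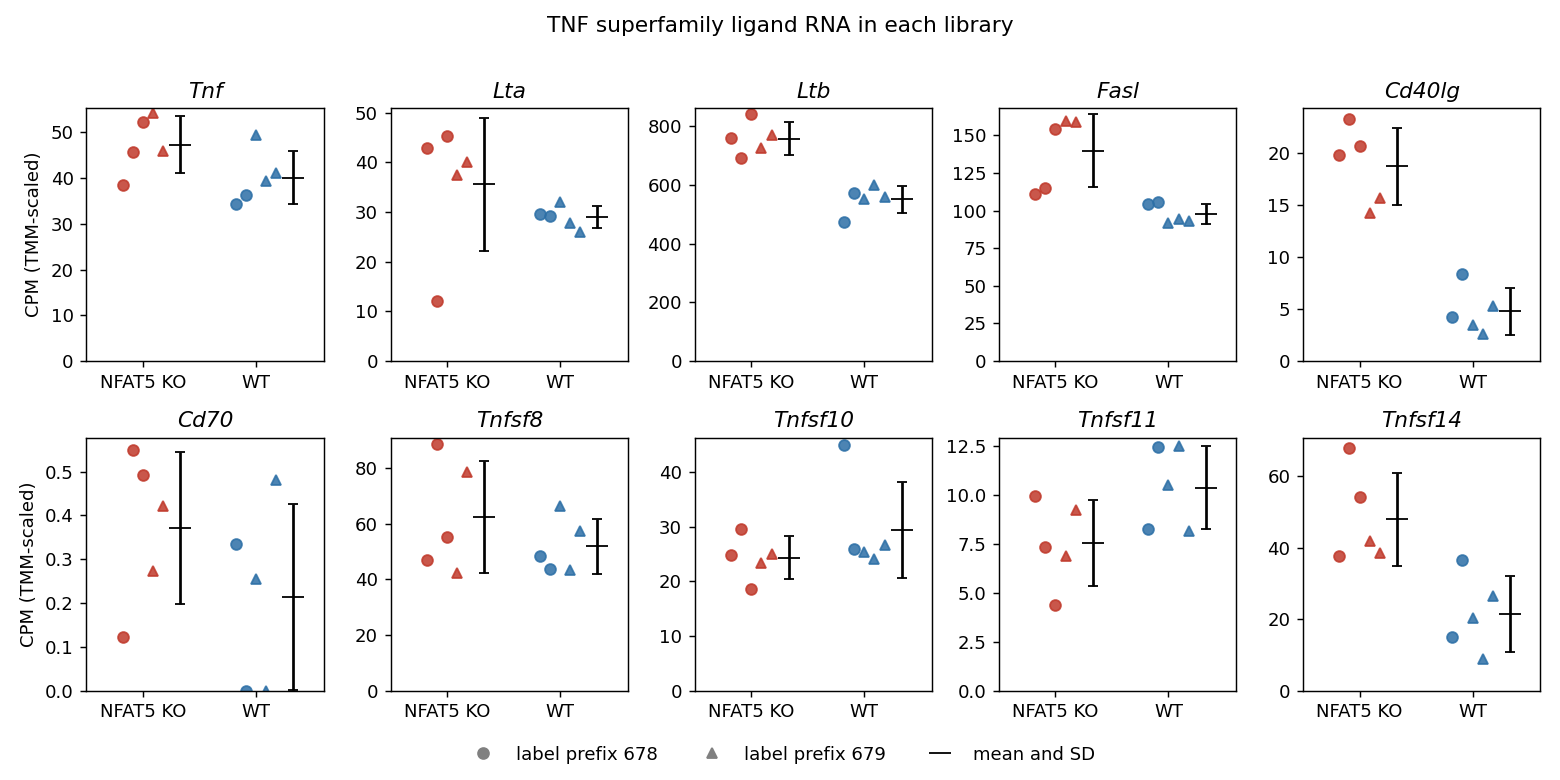
CPM of the 10 ligands in each NFAT5 KO (red, left) and WT (blue, right) library, with circles for label prefix 678 and triangles for 679, and the group mean with its SD in black (bars cut at 0). The groups are apart for Ltb, Fasl, Cd40lg and Tnfsf14, and single libraries stand off for Lta (NFAT5 KO 678_5 at 12.1 CPM) and Tnfsf10 (WT 678_2 at 44.9 CPM).

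The 4 calls were lost when the macrophage marker level was fitted as a covariate. The CD8 T cell and NK cell marker levels also differed between the genotypes and were not fitted. Without a covariate 1179 of all genes passed. With the mean of the macrophage markers as a covariate, a value that differs between the genotypes (mean log2 CPM of -2.24 to 0.989 in NFAT5 KO and 0.603 to 2.37 in WT libraries), no ligand and 54 of all genes passed. The log2 fold changes were then 1.55 for Cd40lg (adjusted p = 0.0998), 0.51 for Ltb (0.101), 0.48 for Fasl (0.368) and 0.53 for Tnfsf14 (0.749). The value of Tnfsf14 differed most from that without the covariate, that of Ltb was higher and those of Cd40lg and Fasl were lower. The genotypes differ in this marker level, and its part in the 4 results cannot be told apart from that of genotype. With the mean of the melanoma markers as a covariate all 4 ligands passed. These markers summed to only 0.916 to 3.79 CPM in NFAT5 KO and 1.19 to 4.27 CPM in WT libraries. Only 1 of the 6 could be tested, so this fit decides nothing about tumour RNA.

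**Figure D4:**
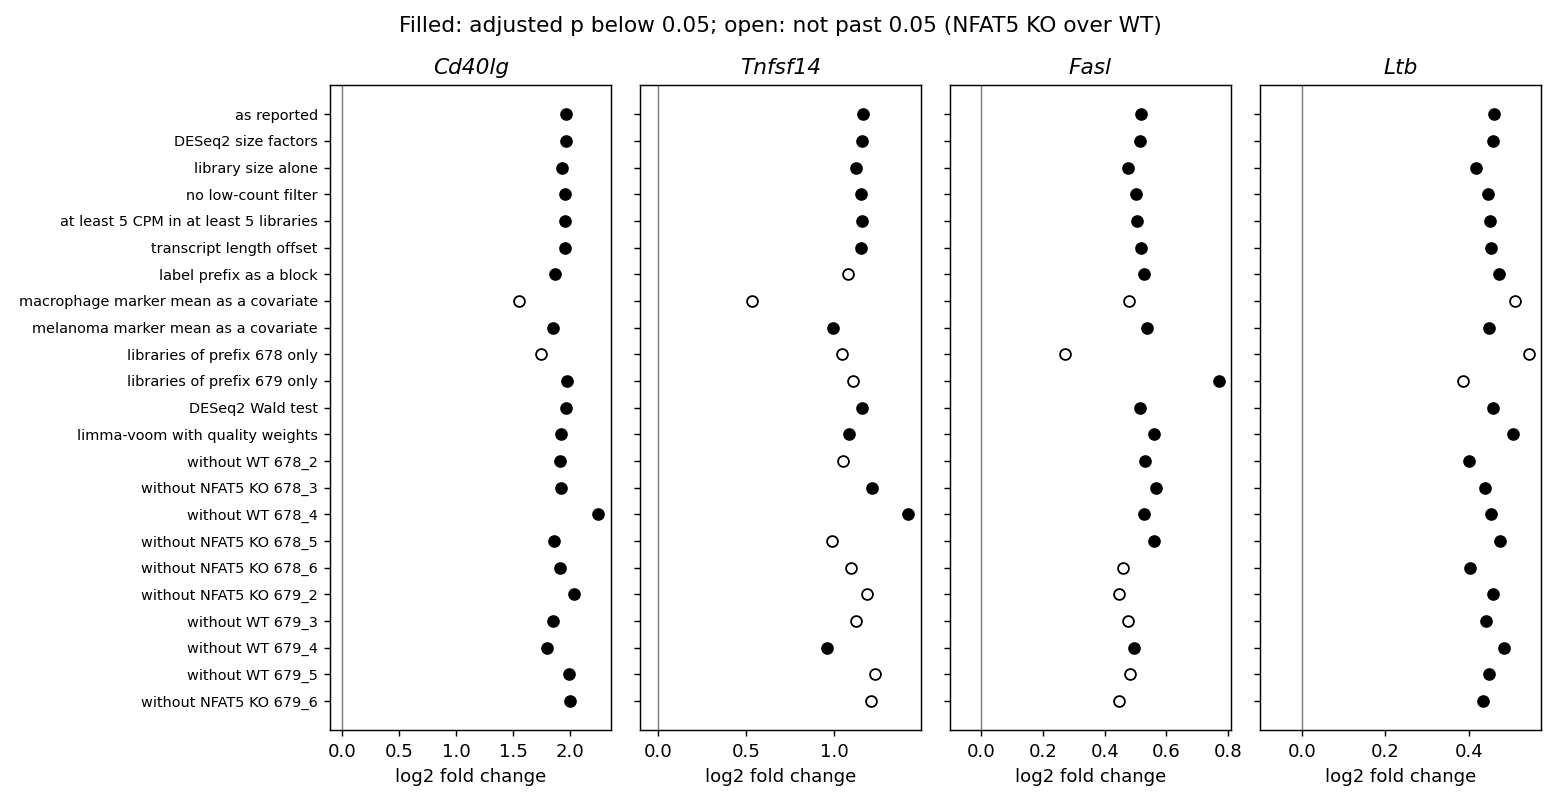
Log2 fold change of NFAT5 KO over WT for the 4 called ligands under each setting, filled where the adjusted p was below 0.05. All values are above 0. All 4 lose their call with the macrophage covariate and in prefix 678 alone, and Ltb and Tnfsf14 also in prefix 679 alone. Fasl and Tnfsf14 lose it when some single libraries are left out, and Tnfsf14 with the prefix as a block.

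Most ligands had 1 main transcript form or a single one. Shares could be tested for genotype in Tnf, Ltb and Tnfsf10 only, and none passed. Cd40lg, Lta, Cd70, Tnfsf8, Tnfsf11 and Tnfsf14 each had a single transcript in the files. Ltb-201 took 82.0 ± 2.91% of the Ltb counts in NFAT5 KO and 81.1 ± 3.13% in WT libraries, and Ltb-203 took 16.1 ± 3.47% in NFAT5 KO and 17.5 ± 3.18% in WT libraries (SD, n = 5 each). The retained-intron form Ltb-202 took 1.46% to 2.89% in NFAT5 KO and 0.895% to 2.02% in WT libraries. Fasl-202 took 2.96% to 5.11% of the Fasl counts in NFAT5 KO and 3.38% to 4.53% in WT libraries. Of the 4 shares tested (Tnf-201, Ltb-201, Ltb-203 and Tnfsf10-201), none passed a two-sided exact permutation test. The lowest adjusted p was 0.976, the lowest unadjusted p was 0.508, and 0.00794 is the smallest p this test can give.

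Of 13 listed receptor genes 9 could be tested, of which 2 rose, none fell and 7 did not pass (median log2 fold change 0.55), where 3.38% of all genes tested were higher and 5.63% lower (median 0.02). Fas, the receptor of FasL, stood at 62.9, 69.2, 63.1, 44.9 and 62.5 CPM in NFAT5 KO and at 42.8, 50.2, 42.4, 27.2 and 36.1 CPM in WT libraries. NFAT5 KO 679_2 was the only one below the highest WT library, and Fas rose by 0.61 ± 0.17 on the log2 scale (SE, at an adjusted p of 0.0393), a call kept in 2 of 10 leave-one-out fits (adjusted p up to 0.0988, without WT 679_5). Tnfrsf23, a decoy receptor of TRAIL in mice, rose by 1.26 ± 0.35 on the log2 scale (SE, at an adjusted p of 0.0403), at 6.48 ± 2.37 CPM in NFAT5 KO and 2.70 ± 0.864 CPM in WT libraries. It passed in 3 of the 10 fits (highest adjusted p 0.114, without NFAT5 KO 678_6), and its close paralog Tnfrsf22 did not pass (0.63, adjusted p = 0.260). Reads of these paralogs may be shared by the quantification, so their values are uncertain.

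Receptor genes of the other ligands did not pass. Per length, the most abundant were Cd27, the receptor of CD70, at 230 ± 30.6 TPM in NFAT5 KO and 255 ± 46.5 TPM in WT libraries, and Tnfrsf1b, which encodes the second TNF receptor, at 148 ± 24.8 TPM in NFAT5 KO and 119 ± 18.4 TPM in WT libraries. Their log2 fold changes were -0.18 (adjusted p = 0.417, and -0.09 without WT 679_4) and 0.31 (adjusted p = 0.0902). Cd27 was thus far above the level of its ligand Cd70 in the same libraries. Tnfrsf1a, the death-domain TNF receptor, had a log2 fold change of 0.11 (adjusted p = 0.692), and of 0.03 without WT 678_2, NFAT5 KO 678_3 or NFAT5 KO 678_5. Tnfrsf14, which encodes HVEM, and Tnfrsf10b, the death receptor of TRAIL, had 0.55 and 0.57 (adjusted p = 0.469 and 0.403), at 3.93 ± 2.44 and 8.78 ± 2.14 CPM in NFAT5 KO and 2.68 ± 0.481 and 5.91 ± 3.63 CPM in WT libraries. Single libraries moved these values: Tnfrsf14 was 0.13 without NFAT5 KO 678_5, and Tnfrsf10b was 0.35 without WT 679_4 and 0.96 without WT 678_4. Tnfrsf8, the receptor of CD30L, averaged 0.278 CPM in NFAT5 KO and 1.07 CPM in WT libraries (adjusted p = 0.384). Its level was 1.36 CPM in NFAT5 KO 678_5 and at most 0.0342 CPM in the other 4 NFAT5 KO libraries, and without 678_5 it was called lower (adjusted p = 0.00341). Ltbr, Cd40, Tnfrsf11a and Tnfrsf11b, the receptors of lymphotoxin and LIGHT, of CD40L and of RANKL, were under the filter, and the last 2 were at 0 in every library.

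Among 8 further ligand genes of the superfamily 3 could be tested and none passed. Of all genes tested, 9.01% were called in either direction, so 3 genes are too few for a contrast with the listed ligands. Tnfsf4, which encodes OX40L, had a log2 fold change of 0.85 ± 0.41 (SE) at an adjusted p of 0.241, Tnfsf9, which encodes 4-1BBL, 0.47 (SE 0.34, adjusted p = 0.453) and Tnfsf13b, which encodes BAFF, -0.55 (SE 0.50, adjusted p = 0.558). None of the 3 had an unadjusted p below 0.05. Without NFAT5 KO 678_5 the value of Tnfsf9 was 0.14, and that of Tnfsf13b was -0.33 without NFAT5 KO 678_3, -0.31 without WT 679_3 and -0.83 without NFAT5 KO 679_6.

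Proteins that shed ligands from the membrane and proteins that destroy their mRNA formed 2 further lists. Of 6 tested shedding genes none passed in edgeR. An unadjusted p below 0.05 was found for 2 of them, and for 3041 of all 13081 genes tested. Rhbdf2, which brings the TNF-cleaving protease ADAM17 to the surface, had a log2 fold change of 0.55 (adjusted p = 0.0710) and Adam17 one of 0.27 (adjusted p = 0.169), both chosen after their values were seen. Rhbdf2 passed without WT 678_2 (0.65, adjusted p = 0.0474), and Adam17 was 0.15 without NFAT5 KO 678_5. Of 10 mRNA decay factors 3 rose and 7 did not pass (median 0.43), against 3.38% higher among all genes (median 0.02). Zfp36, whose protein binds AU-rich elements such as those of Tnf mRNA, rose to 421 ± 48.8 CPM in NFAT5 KO, against 241 ± 54.1 CPM in WT libraries (log2 fold change 0.80, SE 0.14, adjusted p = 0.00401). Its paralog Zfp36l2 rose by 0.61 (SE 0.14, adjusted p = 0.0155, and 0.0509 without WT 678_2). Zc3h12a, which encodes the ribonuclease Regnase-1, rose by 1.01 ± 0.28 on the log2 scale (SE, at an adjusted p of 0.0441) a call kept in 3 of 10 leave-one-out fits (adjusted p up to 0.115, without WT 678_2).

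Of 28 genes for adaptors and enzymes downstream of the receptors 6 rose, 2 fell and 20 did not pass (median 0.13), against 3.38% higher and 5.63% lower among all genes (median 0.02). Tnfaip3, which encodes the NF-kB inhibitor A20, stood at 1458, 1407, 1489, 1904 and 1877 CPM in NFAT5 KO and at 823, 971, 1071, 681 and 1008 CPM in WT libraries. All NFAT5 KO libraries were above all WT libraries, and the log2 fold change was 0.84 ± 0.13 (SE) at an adjusted p of 0.00203. Its partner Tnip1 rose by 0.53 (SE 0.11), Traf1, a signalling adaptor, by 0.69 (SE 0.14), Birc3, a ubiquitin ligase at the TNF receptors, by 0.58 (SE 0.13) and Cflar, which encodes the caspase-8 inhibitor c-FLIP, by 0.60 (SE 0.11). Mlkl, the executioner of necroptosis, fell by 0.76 ± 0.16 on the log2 scale (SE, at an adjusted p of 0.00939). Leaving out any 1 library kept these 6 calls. The remaining 2 calls, named after their values were seen, were Ripk3, the kinase that activates MLKL, which fell by 0.65 ± 0.16 on the log2 scale (SE, at an adjusted p of 0.0259), and Map3k14, the NF-kB-inducing kinase downstream of lymphotoxin beta receptor and CD40, which rose by 1.19 ± 0.32 on the log2 scale (SE, at an adjusted p of 0.0349). Ripk3 kept its call in 7 of 10 leave-one-out fits and Map3k14 in 3, and without WT 678_2 their adjusted p was 0.0644 and 0.0916.

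**Figure D5:**
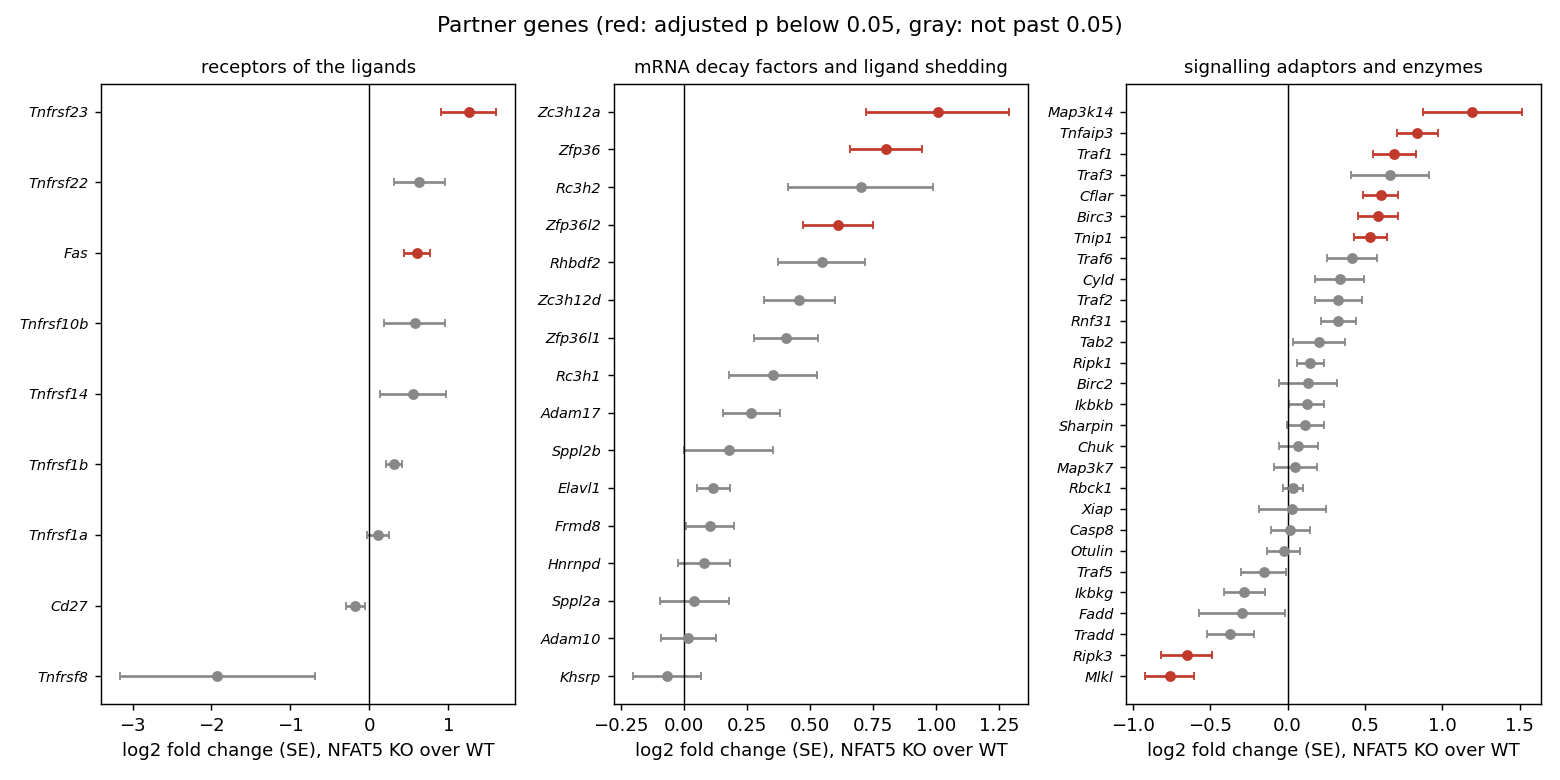
Log2 fold change of NFAT5 KO over WT with its standard error for the tested receptors, mRNA decay and shedding genes, and signalling genes, in red where the adjusted p was below 0.05. Tnfaip3 (0.84) and Zfp36 (0.80) lie among the higher genes, and Mlkl (-0.76) and Ripk3 (-0.65) are the lowest of the signalling genes.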

How the data were processed

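RNA of 10 libraries was quantified by the authors. They deposited 1 table per library with estimated counts of reads and TPM values for 140919 transcripts, per the file headers. Salmon 0.14.1, GRCm38.p6 and mm10 are named, per the submitters' processing notes. The sources used here give neither strandedness nor trimming.

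Transcripts were matched by identifier to GENCODE M21 (140045, or 99.38%), and their estimated counts added up by gene, then rounded. Unmatched transcripts held 0.191% to 0.228% of a library's counts. No pair of libraries of a group agreed within sampling noise. Genes were filtered with filterByExpr, scaled with TMM and tested for NFAT5 KO minus WT with the quasi-likelihood test of edgeR 4.0.16 (R 4.3.3, robust), with Benjamini-Hochberg adjustment over all 13081 genes at 0.05. The fit was tested on simulated data. CPM carries the TMM scaling, and its log2 form a prior count of 2. SE is the absolute log2 fold change over the square root of F. Floors and depth (22444310 to 32001285 counts) cover counting error only. TPM was used for levels between genes and, with estimated counts, for transcript shares, tested where a transcript held 5% to 95% of a gene with at least 50 counts in every library.

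Members and lists (6 of the pathway, 8 of markers) were chosen with earlier results of these data known. From each pathway list, called genes were named, up to 6 by smallest p, and all receptors of the ligands. Alternatives were other scalings, filters, a length offset, label prefix as a block or alone, marker covariates, DESeq2 1.42.0, limma-voom 3.58.1 and leaving out each library.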

Additional observations from a re-analysis of the deposited data

Results flagged for a closer look

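Of the 20 groups of 5 libraries looked at, 10 ligands in each genotype, 2 held a library whose gap to its nearest neighbour was a large part of the range of its group. Chance alone flags about 5% of groups. Lta stood at 12.12 CPM in NFAT5 KO 678_5, against 37.5 to 45.3 CPM in the other NFAT5 KO libraries, and the gap was 0.765 of the range. That library had the highest Cd40lg, Tnfsf14 and Tnfsf8 of all 10. Tnfsf10 stood at 44.88 CPM in WT 678_2, against 24.1 to 26.6 CPM in the other WT libraries, and the gap was 0.882 of the range. The causes were not tested.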

How the results depend on the processing

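The log2 fold change of each of the 9 tested ligands kept its direction in all 22 alternatives. The number of ligands called was 4, and it was 3 or 4 with other scalings, filters, the length offset, the prefix block, the melanoma covariate, DESeq2 or limma-voom. It was 0 with the macrophage covariate and in prefix 678 alone, 2 in prefix 679 alone, and 2 to 4 with 1 library left out. The number of all genes called was 1179, and it was 54 with the macrophage covariate, 0 in prefix 678 alone, 325 in prefix 679 alone, 1893 with the DESeq2 Wald test and 696 to 1276 with 1 library left out, the lowest without WT 678_2. The prefix fits hold fewer samples. For the others the cause was not tested. In prefix 678 alone, Cd40lg, Ltb, Tnfsf14 and Fasl had unadjusted p-values of 0.00194, 0.00737, 0.0406 and 0.168 in the edgeR fit. The differences in transcript share were small and, except for Ltb-203, turned direction: Tnf-201 from -1.2 to 0.833 percentage points, Ltb-201 from -0.184 to 1.76 and Tnfsf10-201 from -1.44 to 1.68 with 1 library left out, and Tnfsf10-201 to -0.0244 as a share of TPM. Ltb-203 stayed below 0, at -2.285 to -0.068 percentage points with 1 library left out. The interaction of genotype with prefix had 0 calls in edgeR with TMM (377 genes at an unadjusted p below 0.05) and 0 with library size alone. The titles' numbers are not shared as replicate numbers, so no pairing was fitted. Cd70, at 0 to 15 counts, is the ligand that depth limits.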

Other observations

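For Tnf and the 4 called ligands, the genes whose log2 CPM followed them most closely over the 10 libraries were looked up among tested genes whose log2 CPM averaged at least 1. These likenesses describe the libraries, which also share their genotypes. The 3 highest values out of many genes are given for each, and with 10 libraries such values can arise from the picking alone. Cd40lg was followed by Acss2 (Pearson's r = 0.989), Isy1 (0.984) and the chemokine gene Ccl5 (0.974). Tnfsf14 was followed by Smad3 (0.988), which encodes a mediator of TGF-beta signals, by Trdv4 (0.986) and by Camsap2 (0.976). Ltb was followed by Map3k8 (0.969), a kinase of the MAP kinase pathway, Gm37758 (0.959) and Phc2 (0.953). Fasl was followed by Tgtp1 (0.966), Ankrd40 (0.946) and Igtp (0.943), of which Tgtp1 and Igtp are known as interferon-inducible GTPases. Tnf was followed by Txlng (0.914), Dgka (0.913) and Krtcap3 (0.909).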
